A study of Oryctolagus cuniculus with 9 samples.

Results

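The genes described here copy the chromosomes and decide when copying begins: 46 genes for DNA replication and for the passage from G1 into S phase of the cell cycle. They were chosen by a rule on the symbol that uses no measured value, though with earlier results of these data known. A row was taken if its symbol began with MCM, ORC, POLA, POLD, POLE, PRIM, RFC, GINS or E2F followed by a digit, or was 1 of a short list of named genes such as PCNA, CDC6 and CCNE1. They are 46 of the 19291 genes in the table, and all 46 were among the 12324 genes with enough counts to be tested. The rule also took MCM3AP, which shares its first letters with the MCM helicase genes but belongs to the export of mRNA from the nucleus, and it is kept apart below. CCND1, CCND2 and CDC45, which the rule names, were not analysed here. E2F4, E2F6, GINS2, PRIM1, POLA2, POLD1, POLD3, POLD4, POLE3 and POLE4 are not among the 46 either. The E2F, GINS, polymerase and primase genes below are therefore not complete families.

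The study sequenced RNA of HA-VSMC, a line grown in culture, in 9 libraries. Its species is given as rabbit (Oryctolagus cuniculus) and was not checked here. The 3 groups of 3 libraries were control cells, cells with β-estradiol at 50 nM and cells with β-estradiol at 250 nM. β-Estradiol is the main estrogen of the ovary, and harvest followed after 48 h. All groups grew in RPMI medium with fetal bovine serum. The stock of estradiol was made in DMSO, and the labels do not state whether the control cells received it. The treatment protocol names 250 nM alone. The labels tag the controls with estrogen as their treatment and WT as their concentration, so the control group rests on the sample titles. The study asked by which pathway estrogen takes part in adenomyosis, the growth of endometrium within the uterine muscle. Each group is 1 line, and the labels do not say whether the 3 libraries are 3 cultures. The p-values therefore measure no more than the spread among these libraries, which may be technical.

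Replication is prepared in G1, when the origin recognition complex (ORC) marks origins and, with CDC6 and CDT1, loads the MCM2-7 helicase onto DNA in an inactive form. Geminin (GMNN) holds CDT1 back once S phase has begun. Cyclin E with CDK2, after cyclin D with CDK4, phosphorylates the retinoblastoma protein and frees the activating E2F factors, whose targets include many of the genes described here. In breast and uterine epithelium estradiol is known to drive cells from G1 into S phase.

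The libraries held 54718407 to 72274464 deposited count units, which correspond to about 13679602 to 18068616 fragments at 4 units per fragment. The 7 smooth muscle markers with a row were not all high. ACTA2 ran from 2807 to 3139 CPM (counts scaled to a common library size) over the 9 libraries and CALD1 from 1651 to 1930 CPM. SMTN ran from 180 to 223 CPM and MYH11 from 25.99 to 40.0 CPM. LMOD1 was low at 1.74 to 2.66 CPM, MYOCD at 1.07 to 2.30 CPM, and DES was 0 in all. The 5 endothelial markers summed to 0.835 to 1.59 CPM with KDR at 0 in all libraries. The 3 epithelial markers with a row summed to at most 0.204 CPM, with EPCAM at 0, and the 3 leukocyte markers with a row to at most 0.328 CPM. The 5 fibroblast markers summed to 7255 to 7533 CPM in control libraries, 8114 to 8646 CPM at 50 nM and 8270 to 8645 CPM at 250 nM, and none was at 0 in all libraries. Most of that sum was COL1A1, at 6971 to 8351 CPM over the 9 libraries, while PDGFRA was at 1.88 to 3.03 CPM. The proliferation markers TOP2A, CCNB1 and CDK1 summed to 283.0 to 296 CPM in control libraries, 237 to 285 CPM at 50 nM and 255 to 282 CPM at 250 nM. The part of these marker differences in the results below was not tested. The 3 libraries at 50 nM spread widely on the second principal component, which held 14.0% of the variance: replicate 2 lay at -19.6, replicate 1 at 3.81 and replicate 3 at 27.1.

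Levels between genes are compared in the deposited FPKM, which are per length of transcript, as means over all 9 libraries. Those lengths are not given in the sources used, and the order of genes rests on them. PCNA, the sliding clamp that holds polymerases on DNA, had the highest level of the 46 genes at 89.8 FPKM, at percentile 93.4 of the genes tested. E2F2, an activating E2F factor, had the lowest at 0.403 FPKM, at percentile 10.1. No member was at 0 in any library.

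The subunits of a complex were not at equal levels in FPKM. In the MCM2-7 helicase, a ring with 1 copy of each subunit, MCM7 averaged 63.7 FPKM, MCM2 55.5, MCM4 41.7, MCM6 38.3, MCM5 37.9 and MCM3 17.2 FPKM. MCM6 and MCM5 were not in a fixed order, with MCM6 above MCM5 in 5 of 9 libraries. The ranges of MCM5 and MCM3 did not overlap, at 35.0 to 44.0 FPKM and 16.0 to 18.9 FPKM. The ORC subunits were lower, between 2.01 FPKM for ORC5 and 6.91 FPKM for ORC4, and ORC4, ORC2, ORC1 and ORC3 each overlapped with the next. In the clamp loader, RFC1, the large subunit, averaged 34.1 FPKM, above RFC2 at 15.3, RFC5 at 13.4, RFC4 at 9.92 and RFC3 at 3.61 FPKM. Among the E2F factors E2F3 averaged 7.83 FPKM and E2F1 6.37 FPKM, both activators. The repressor-type factors E2F8 and E2F7 averaged 2.89 and 1.08 FPKM, and E2F5, a partner of the retinoblastoma-related pocket proteins, 2.20 FPKM. Some gaps and orders were not the same in CPM, which are not per length. In control libraries RFC5, RFC4 and RFC3 averaged 13.4, 11.5 and 10.8 CPM, and E2F8 12.8 CPM against 8.26 CPM for E2F1. MCM2 and MCM4 averaged 160 and 157 CPM there, against 143 CPM for MCM7.

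**Figure D1:**
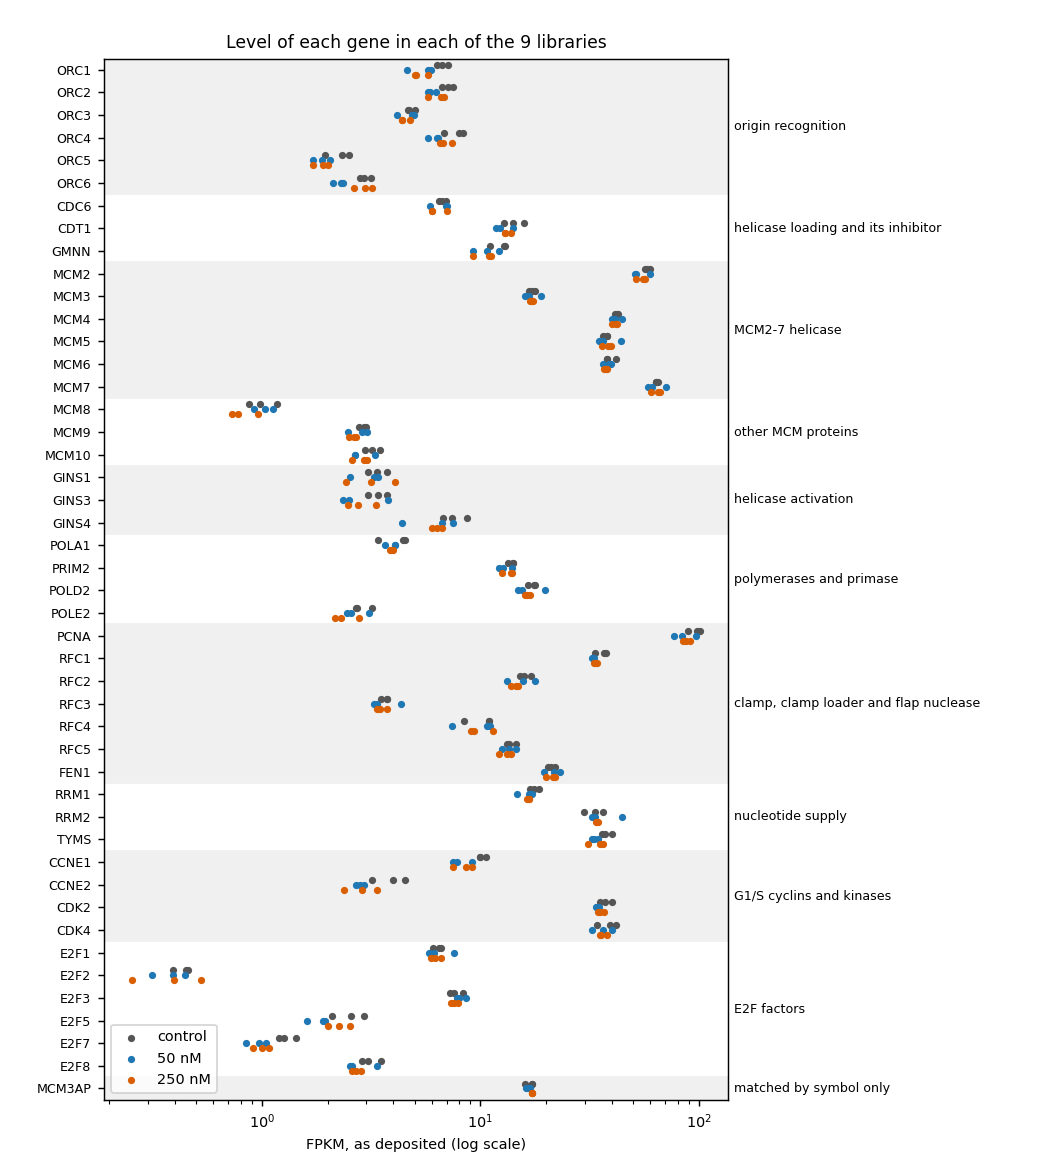
Level of each of the 46 genes in each library, as deposited FPKM on a log axis, with genes grouped by role and 3 points for each group. The points of the 3 groups lie close together for nearly every gene, from E2F2 at a mean of 0.403 FPKM to PCNA at a mean of 89.8 FPKM.

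At 50 nM against control, 0 of the 46 genes passed an adjusted p of 0.05, where 3.25% of all genes tested did. The test was edgeR's quasi-likelihood test with Benjamini-Hochberg adjustment over all genes tested, and DESeq2 and limma-voom also called 0 of the 46. At an unadjusted p under 0.05, edgeR had 7 of the 46 lower, where 8.17% of all genes tested were lower, and 0 higher, where 7.44% were higher. The 7 were CCNE1, CCNE2, E2F5, E2F7, ORC1, ORC4 and ORC6. DESeq2 had 6 of the 46 under that unadjusted limit, RRM2 among them as a higher gene, and limma-voom had 5. In 9 of the 46 every library at 50 nM lay below every control library, where 10.1% of all genes did, and in 0 did every library lie above, where 8.88% did. The median log2 fold change of the 46 was -0.05, against -0.002 over all genes tested, and 29 of the 46 were below 0, where 50.6% of all genes were. In bulk RNA, fewer cells in a phase of the cycle and less RNA per cell cannot be told apart.

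At 250 nM against control, again 0 of the 46 genes passed by edgeR, DESeq2 or limma-voom, where 0.308% of all genes did by edgeR. At an unadjusted p under 0.05, edgeR had 4 lower, where 4.71% of all genes were lower, and 0 higher, where 3.97% were higher. The 4 were CCNE1, CCNE2, E2F7 and ORC1, and DESeq2 and limma-voom had these 4 too. In CCNE1, E2F7, ORC1 and RFC2 every library at 250 nM lay below every control library, where 7.76% of all genes did, and MCM3AP lay above in every library, where 7.75% did. The median log2 fold change was -0.05, and 35 of the 46 were below 0, where 51.8% of all genes were. Between the concentrations, at 250 nM against 50 nM, 0 of the 46 passed by any of the 3 tools, where 0.325% of all genes did by edgeR. At an unadjusted p under 0.05 each tool had ORC6 higher, where 3.01% of all genes were by edgeR, and MCM8 lower, where 2.67% were. ORC4, ORC6, E2F5 and MCM3AP had every library at 250 nM above every library at 50 nM, where 5.94% of all genes did, and E2F3 every library below, where 5.57% did. The median log2 fold change was -0.01, and 26 of the 46 were below 0, where 51.2% of all genes were. In the test of any difference among the 3 groups, 0 of the 46 passed by any of the 3 tools, where 1.86% of all genes did by edgeR, and 4 had an unadjusted p under 0.05 in each tool, where 12% of all genes did by edgeR. The 2 comparisons with control share the same 3 control libraries, so their common direction is not independent.

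The intervals show how large a change the 3 libraries a group leave possible. The unadjusted 95% interval of the log2 fold change lay within 0.5 either side of 0 for 39 of the 46 genes at 50 nM against control, where 71.6% of all genes did. The same held at 250 nM against control for 36 of the 46, where 74.4% of all genes did, and at 250 nM against 50 nM for 42 of the 46, where 75.3% did. The median standard error of the 46 was 0.10 on the log2 scale at 50 nM against control, and the highest was 0.26, for E2F2.

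**Figure D2:**
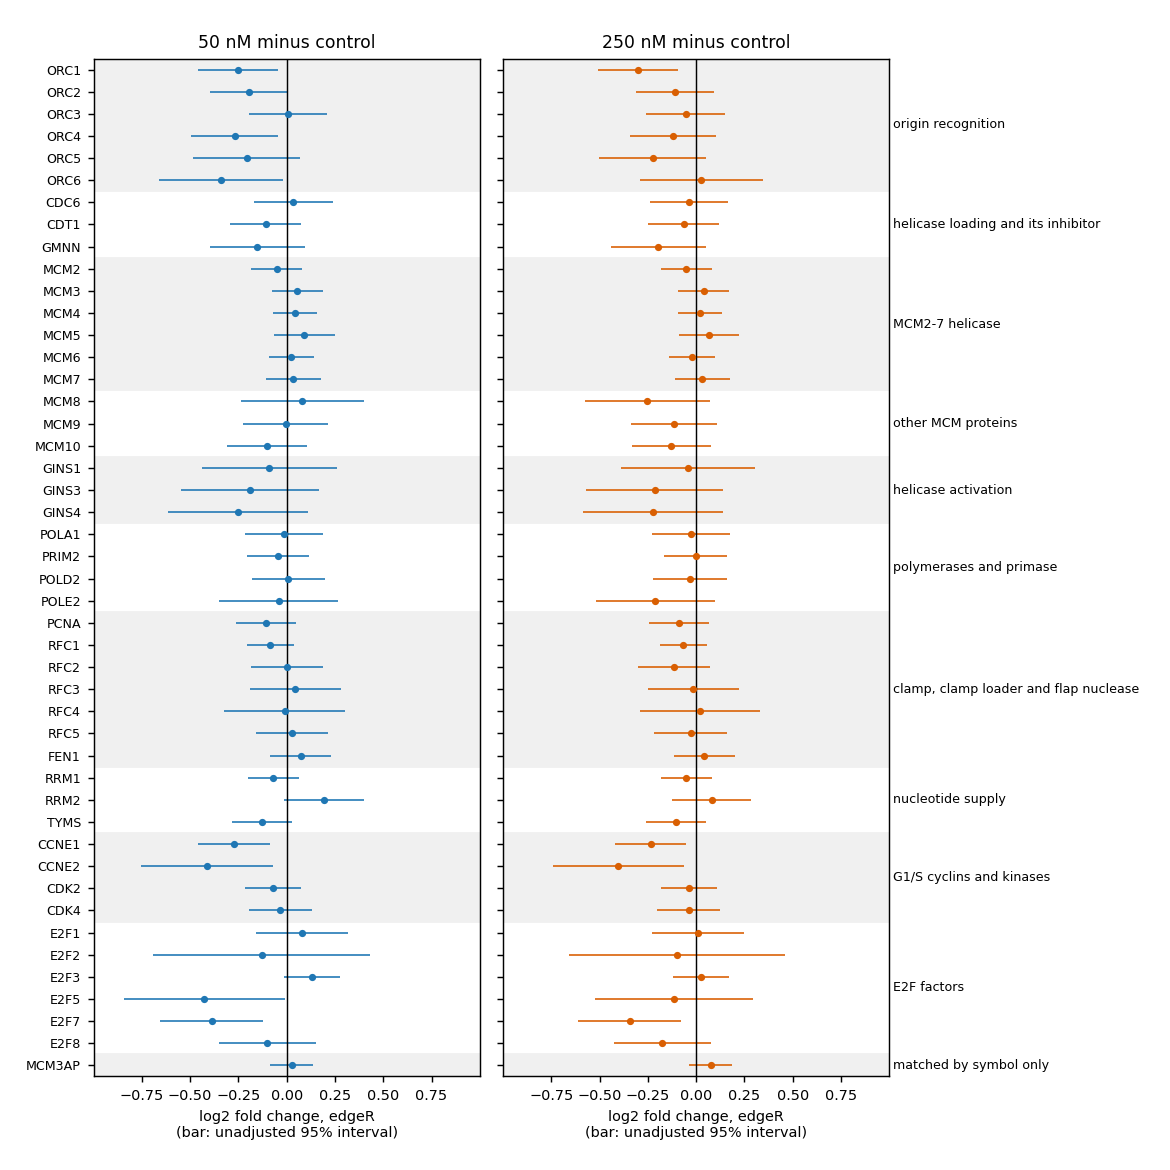
Log2 fold change of each gene at 50 nM (left) and 250 nM (right) minus control, as points with unadjusted 95% intervals from edgeR, grouped by role. The intervals of MCM2-7 are short and span 0, while those of CCNE1, CCNE2, E2F7 and ORC1 lie below 0 at both concentrations before adjustment.

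Among the cyclins and kinases of the G1/S step, the members of lowest p were the cyclins E. CCNE1, which activates CDK2 late in G1, had 30.9, 31.3 and 33.2 CPM in control libraries, 25.2, 24.6 and 29.2 CPM at 50 nM, and 29.4, 27.8 and 24.1 CPM at 250 nM. Every library with estradiol lay below every control library. The log2 fold change was -0.27 ± 0.09 (SE) at 50 nM (edgeR adjusted p = 0.112) and -0.23 ± 0.09 at 250 nM (edgeR adjusted p = 0.404), so neither passed. Without replicate 3 at 50 nM, the highest of its group, CCNE1 passed at 50 nM with -0.35 ± 0.09 (edgeR adjusted p = 0.032).

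CCNE2, the second cyclin E, was a low gene with 4.30, 5.42 and 6.07 CPM in control libraries, 3.97, 3.83 and 4.07 CPM at 50 nM, and 3.99, 4.68 and 3.31 CPM at 250 nM. The libraries at 50 nM lay below every control library, and those at 250 nM overlapped with them. Its log2 fold change was -0.41 ± 0.16 at 50 nM (edgeR adjusted p = 0.206) and -0.40 ± 0.16 at 250 nM (edgeR adjusted p = 0.448). The kinases overlapped between all groups. CDK2, the partner of cyclin E, averaged 39.6 ± 2.77 CPM in control libraries, 37.7 ± 0.659 CPM at 50 nM and 38.6 ± 1.68 CPM at 250 nM (SD, n = 3 each). CDK4, the partner of cyclin D, averaged 232 ± 21.9 CPM in control libraries, 227 ± 21.7 CPM at 50 nM and 226 ± 7.58 CPM at 250 nM (SD, n = 3 each).

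The E2F factors did not share a direction. E2F7, a repressor of E2F targets that is itself made in S phase, had 6.94, 7.40 and 8.32 CPM in control libraries, 5.09, 6.39 and 5.81 CPM at 50 nM, and 6.39, 6.02 and 5.47 CPM at 250 nM. All 6 libraries with estradiol lay below the 3 controls. The log2 fold change was -0.39 ± 0.13 at 50 nM (edgeR adjusted p = 0.117) and -0.34 ± 0.12 at 250 nM (edgeR adjusted p = 0.393). E2F5 had 2.49, 2.89 and 2.03 CPM in control libraries, 1.92, 1.65 and 1.94 CPM at 50 nM, and 1.99, 2.28 and 2.55 CPM at 250 nM. It was below every control library at 50 nM only, with a log2 fold change of -0.43 ± 0.20 (edgeR adjusted p = 0.305) at 50 nM and -0.11 ± 0.19 (edgeR adjusted p = 0.935) at 250 nM. The difference between the concentrations was 0.31 ± 0.20 (edgeR adjusted p = 1).

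Among the activators, E2F1 had 7.83, 8.62 and 8.32 CPM in control libraries, 8.24, 7.93 and 10.0 CPM at 50 nM, and 8.18, 8.82 and 7.95 CPM at 250 nM, and the groups overlapped. Its log2 fold change of 0.08 ± 0.11 at 50 nM (edgeR adjusted p = 0.827) turned to -0.03 without replicate 3 at 50 nM. At 250 nM it was 0.01 ± 0.11 (edgeR adjusted p = 0.993), and its sign changed with the scaling. E2F3 averaged 36.6 ± 2.26 CPM in control libraries, 40.1 ± 1.75 CPM at 50 nM and 37.2 ± 1.26 CPM at 250 nM (SD, n = 3 each). Its log2 fold change at 250 nM against 50 nM was -0.11 ± 0.07 (edgeR adjusted p = 1), with every library at 250 nM below every library at 50 nM. E2F2 and E2F8 overlapped between all groups. The ratio of E2F3 to E2F7 in FPKM, an activator over a repressor, was 5.28 to 6.92 in control libraries, 7.67 to 9.31 at 50 nM and 7.40 to 8.07 at 250 nM, with no overlap between control and either concentration. E2F7, its denominator, was by itself below every control library in every library with estradiol, so the ratio is no separate evidence. This ratio was picked with the values known and was not tested.

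**Figure D3:**
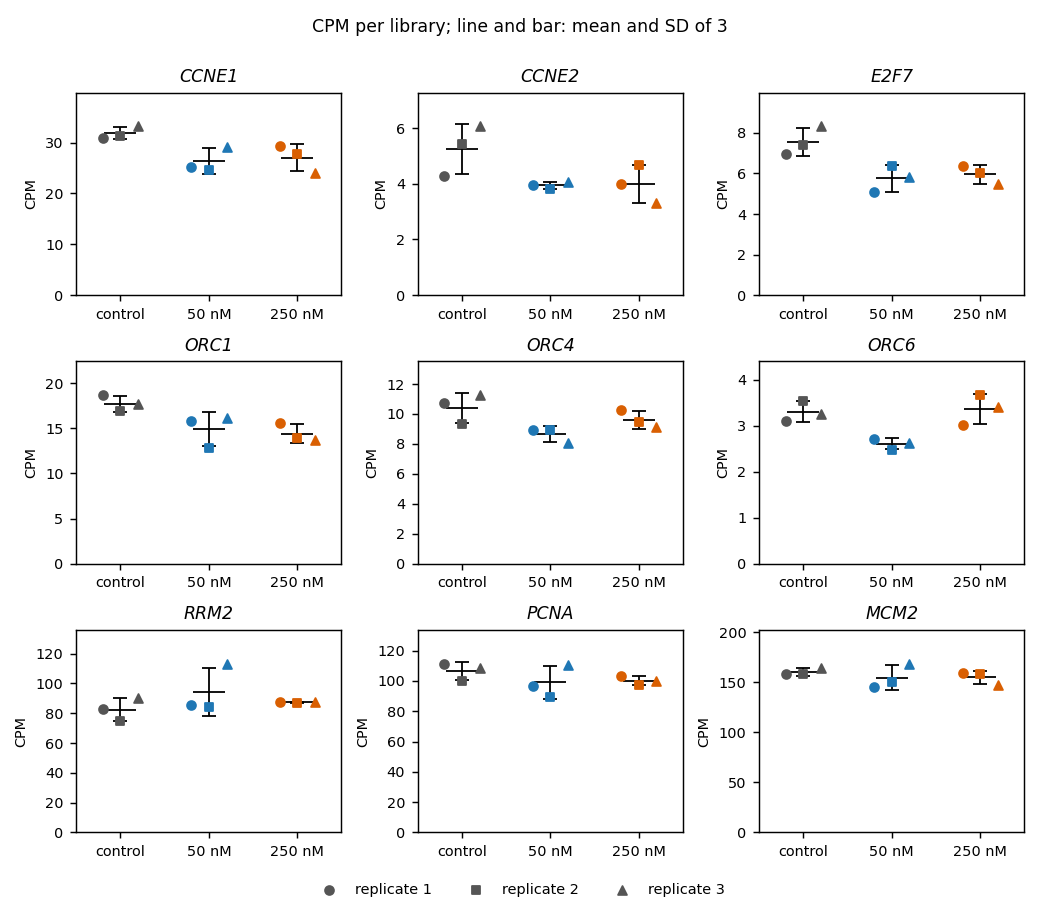
CPM in each library for 9 of the genes, with a point for each library and a line and bar at the group mean and SD (n = 3), for control, 50 nM and 250 nM. CCNE1, E2F7 and ORC1 have all 6 libraries with estradiol below the 3 controls, and RRM2 has replicate 3 at 50 nM at 113 CPM above every other library.

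Of the 6 ORC genes, 5 had a log2 fold change below 0 at 50 nM, and none passed. ORC1, the subunit that rises and falls with the cell cycle in human cells, had 18.7, 16.9 and 17.6 CPM in control libraries, 15.9, 12.8 and 16.1 CPM at 50 nM, and 15.6, 13.9 and 13.7 CPM at 250 nM. Both concentrations lay below every control library. The log2 fold change was -0.25 ± 0.10 at 50 nM (edgeR adjusted p = 0.208) and -0.30 ± 0.10 at 250 nM (edgeR adjusted p = 0.316). CCNE1, E2F7 and ORC1 were the only 3 of the 46 genes with both concentrations below every control library, where 3.91% of all genes were, and 0 of the 46 had both above, where 3.8% did.

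ORC6, the smallest subunit, differed between the concentrations before adjustment. It had 3.10, 3.55 and 3.25 CPM in control libraries, 2.72, 2.48 and 2.62 CPM at 50 nM, and 3.02, 3.66 and 3.40 CPM at 250 nM. The 50 nM libraries lay below all 6 others. The log2 fold change was -0.34 ± 0.15 at 50 nM against control (edgeR adjusted p = 0.284) and 0.37 ± 0.15 at 250 nM against 50 nM (edgeR adjusted p = 0.738). ORC4 had 10.7, 9.31 and 11.3 CPM in control libraries, 8.94, 8.96 and 8.05 CPM at 50 nM, and 10.2, 9.44 and 9.12 CPM at 250 nM, with a log2 fold change of -0.27 ± 0.11 at 50 nM (edgeR adjusted p = 0.215). ORC2 was -0.20 ± 0.09 and ORC5 -0.21 ± 0.13 at 50 nM, while ORC3 was 0.01 ± 0.10.

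The loaders and their inhibitor stayed within the spread. CDC6, the ATPase that with ORC loads the helicase, had 13.9, 13.4 and 12.9 CPM in control libraries, 14.5, 12.4 and 14.3 CPM at 50 nM, and 12.3, 12.5 and 14.5 CPM at 250 nM. The groups overlapped, with log2 fold changes of 0.03 ± 0.10 at 50 nM (edgeR adjusted p = 0.927) and -0.04 ± 0.10 at 250 nM (edgeR adjusted p = 0.968). The sign of the first changed with the FPKM scaling and without replicate 1 at 50 nM. CDT1 averaged 25.2 ± 2.39 CPM in control libraries, 23.3 ± 2.06 CPM at 50 nM and 24.1 ± 0.983 CPM at 250 nM (SD, n = 3 each). Its inhibitor GMNN averaged 11.4 ± 0.910 CPM in control libraries, 10.3 ± 1.28 CPM at 50 nM and 9.95 ± 1.02 CPM at 250 nM (SD, n = 3 each). The ratio of CDT1 to GMNN in FPKM overlapped between all groups.

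Over the 6 genes of the MCM2-7 helicase the log2 fold changes at 50 nM ran from -0.05 for MCM2 to 0.09 for MCM5, and the unadjusted 95% intervals stayed between -0.18 and 0.25. At 250 nM they ran from -0.05 to 0.07, with intervals between -0.18 and 0.22, and none passed. MCM2 had 158, 158 and 165 CPM in control libraries, 145, 150.4 and 169 CPM at 50 nM, and 160, 158 and 147 CPM at 250 nM. The groups overlapped, with a log2 fold change of -0.05 ± 0.06 both at 50 nM (edgeR adjusted p = 0.785) and at 250 nM (edgeR adjusted p = 0.902).

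The other MCM proteins and the helicase activators were lower genes with wider intervals. MCM8, a helicase of recombination repair, had 4.30, 4.89 and 5.77 CPM in control libraries, 5.31, 4.80 and 5.74 CPM at 50 nM, and 3.94, 4.93 and 3.72 CPM at 250 nM. Its log2 fold change at 250 nM against 50 nM was -0.33 ± 0.15 (edgeR adjusted p = 0.856), and the groups overlapped. MCM9, the partner of MCM8, and MCM10, which helps to start the fork, overlapped between all groups. The GINS proteins join the helicase when it is switched on. GINS1 was at -0.09 ± 0.16 on the log2 scale at 50 nM, GINS3 at -0.19 ± 0.17 and GINS4 at -0.25 ± 0.17, with intervals from -0.62 to 0.26 over the 3.

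Polymerases and the primase differed by little. POLA1, the catalytic subunit of polymerase α that starts each strand with the primase, averaged 32.5 ± 5.15 CPM in control libraries, 32.2 ± 1.55 CPM at 50 nM and 31.9 ± 0.694 CPM at 250 nM (SD, n = 3 each). Over POLA1, PRIM2, POLD2 and POLE2 the log2 fold changes at 50 nM ran from -0.05 to 0.01. At 250 nM the lowest was POLE2, an accessory subunit of polymerase ε, at -0.21 ± 0.14 (edgeR adjusted p = 0.773).

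PCNA had 111, 99.6 and 109 CPM in control libraries, 96.7, 89.6 and 111 CPM at 50 nM, and 103, 97.4 and 100.01 CPM at 250 nM. The groups overlapped, and the log2 fold change was -0.11 ± 0.07 at 50 nM (edgeR adjusted p = 0.552) and -0.09 ± 0.07 at 250 nM (edgeR adjusted p = 0.825). The 5 RFC genes and FEN1, the nuclease that trims Okazaki fragments, ran from -0.08 for RFC1 to 0.07 for FEN1 at 50 nM on the log2 scale. RFC2 was below every control library at 250 nM, at 29.4 ± 0.811 CPM, against 31.8 ± 1.64 CPM in control libraries (SD, n = 3 each), with a log2 fold change of -0.11 ± 0.09.

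In nucleotide supply the highest fold change of the 46 genes at 50 nM stood on 1 library. RRM2, the small subunit of ribonucleotide reductase and the one made mainly in S phase, had 82.7, 74.9 and 89.9 CPM in control libraries, 85.7, 84.0 and 113 CPM at 50 nM, and 87.6, 86.8 and 87.3 CPM at 250 nM. Only replicate 3 at 50 nM lay above every control library, and the log2 fold change was 0.19 ± 0.10 (edgeR adjusted p = 0.364). RRM1, the large subunit, averaged 138 ± 7.06 CPM in control libraries, 132 ± 9.18 CPM at 50 nM and 134 ± 1.99 CPM at 250 nM (SD, n = 3 each). The ratio of RRM2 to RRM1 in FPKM was 1.703 to 1.998 in control libraries, 2.001 to 2.58 at 50 nM and 2.03 to 2.102 at 250 nM. Control did not overlap with either concentration, though by a narrow margin. The ratio was not planned in advance and was not tested. Ratios of CCNE1 to CCNE2 and of PCNA to RFC1 in FPKM were also computed, and they overlapped between all groups. TYMS, which makes thymidylate, averaged 34.0 ± 1.16 CPM at 50 nM, below every control library, against 37.1 ± 1.94 CPM in control libraries (SD, n = 3 each), with a log2 fold change of -0.13 ± 0.07. MCM3AP, the export gene, averaged 120.3 ± 4.12 CPM in control libraries, 122.5 ± 3.26 CPM at 50 nM and 127 ± 1.12 CPM at 250 nM (SD, n = 3 each).

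The 3 libraries at 50 nM did not move as a block. Replicate 3 was the highest of the 3 for 33 of the 46 genes, where it was for 36.3% of all genes tested, and the highest of all 9 libraries for 15 of the 46, where it was for 14.4%. Replicate 2 was the lowest of the 3 for 30 of the 46, where it was for 33.7%. The median over the 46 genes of the log2 difference from the control mean was -0.06 in replicate 1, -0.12 in replicate 2 and 0.05 in replicate 3 at 50 nM. At 250 nM the same median was -0.06, -0.07 and -0.06, and in control libraries -0.02, -0.01 and 0.03. Without replicate 3 at 50 nM the median log2 fold change of the 46 at 50 nM was -0.10, and that at 250 nM against 50 nM was 0.05 where it had been -0.01. The part of this library's place on the second principal component in these values was not tested.

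**Figure D4:**
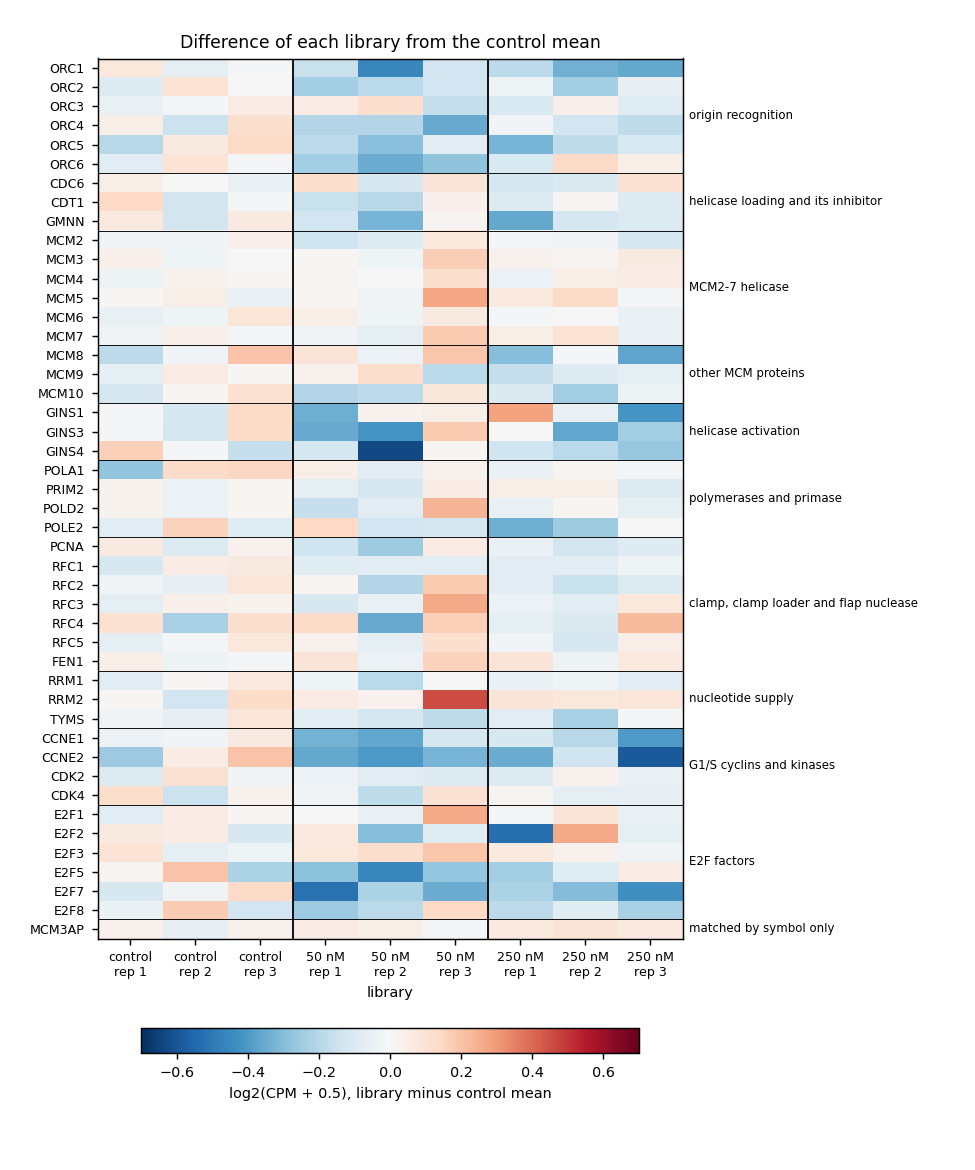
Difference of each library from the control mean for each gene, as log2(CPM + 0.5), with red above and blue below, libraries in columns and genes in rows by role. Replicate 3 at 50 nM is the reddest column with estradiol, with a median of 0.05, and replicate 2 at 50 nM the bluest, with a median of -0.12.

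The median shift of other S-phase genes was also small. Of 50 listed S-phase genes and E2F targets outside the 46, 40 were tested, and at 50 nM 0 rose and 1 fell, a share near the 1.7% of all genes tested that fell. Their median log2 fold change was -0.04. The 1 was CDC7, the kinase that switches on the loaded helicase, with 11.6 ± 0.298 CPM at 50 nM against 15.5 ± 2.14 CPM in control libraries (SD, n = 3 each) and a log2 fold change of -0.41 ± 0.10 (edgeR adjusted p = 0.0458). That call was lost by limma-voom (adjusted p = 0.0637), with the 2 groups alone (edgeR adjusted p = 0.0789), by limma on FPKM in all 3 settings (adjusted p up to 0.101) and without any 1 of the libraries other than control replicate 1 (edgeR adjusted p up to 0.166). At 250 nM 0 of the 40 passed by edgeR, with a median of -0.04. At an unadjusted p under 0.05, 1 of the 40 was lower there, where 4.71% of all genes were. Between the concentrations 0 passed by edgeR, with 1 higher at an unadjusted p under 0.05, where 3.01% of all genes were.

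Of 38 listed regulators of the G1/S step outside the 46, 33 were tested. At 50 nM against control 5 of the 33 fell, where 1.7% of all genes tested did, 0 rose and 28 did not pass. BTG2, an antiproliferative gene induced by p53, had 49.6, 44.7 and 51.4 CPM at 50 nM against 91.2, 78.9 and 101 CPM in control libraries, a log2 fold change of -0.89 ± 0.09 (edgeR adjusted p = 2.4e-05). CDKN1A, the inhibitor of CDK2 known as p21, had 308, 304 and 331 CPM at 50 nM against 399, 404 and 402 CPM in control libraries, a log2 fold change of -0.35 ± 0.05 (edgeR adjusted p = 0.00111). MYC, a driver of G1 progression, had 74.8, 71.6 and 73.9 CPM at 50 nM against 88.5, 102 and 88.2 CPM in control libraries, a log2 fold change of -0.34 ± 0.07 (edgeR adjusted p = 0.0108). BTG2, CDKN1A and MYC each had every library at 50 nM below every control library, where 10.1% of all genes tested did. The inhibitors did not share a direction. CDKN2B, an inhibitor of CDK4 named after its values were seen, had 3.59, 3.01 and 2.99 CPM at 50 nM against 1.83, 2.05 and 2.61 CPM in control libraries, and its log2 fold change of 0.56 ± 0.18 did not pass (edgeR adjusted p = 0.113). CDKN1B, also named after its values were seen, went the other way and did not pass either. It was at -0.23 ± 0.06 at 50 nM (edgeR adjusted p = 0.0534) and -0.20 ± 0.06 at 250 nM (edgeR adjusted p = 0.267). Every library with estradiol lay below every control library for CDKN1B, as in 3.91% of all genes tested.

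CCNG2, a cyclin linked to cell cycle arrest, fell by 0.51 ± 0.07 on the log2 scale at 50 nM (edgeR adjusted p = 0.00066). The fifth was LIN9, a subunit of the DREAM and MuvB complexes that was named after its values were seen, at -0.41 ± 0.10 (edgeR adjusted p = 0.0335). Its call was lost without replicate 1 or 2 at 50 nM or control replicate 2 or 3 (edgeR adjusted p up to 0.113), with the 2 groups alone (edgeR adjusted p = 0.057) and by limma on log2(FPKM + 1) with no filter (adjusted p = 0.058). Of the 33, 1 fell at 250 nM against control, where 0.105% of all genes did. It was CCNG2 at -0.36 ± 0.07 (edgeR adjusted p = 0.0388), and this call was lost in 10 of 21 alternatives, among them without any 1 control library (edgeR adjusted p up to 0.236 over all 10). At 250 nM against 50 nM, BTG2 was higher by 0.68 ± 0.09 (edgeR adjusted p = 0.00105) and MYC by 0.44 ± 0.07 (edgeR adjusted p = 0.00567). Among all genes 0.187% were called higher there. Both calls were lost by limma on log2(FPKM + 1) with no filter (adjusted p = 0.0755 for BTG2 and 0.0535 for MYC), and the MYC call also without replicate 2 at 250 nM (edgeR adjusted p = 0.0626). That comparison shares its 50 nM libraries with the first.

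Genes of G2 and mitosis were set beside the 46 for contrast. Of 52 listed, 45 were tested, and at 50 nM 0 rose and 9 fell, where 1.7% of all genes tested fell. At an unadjusted p under 0.05, 20 of the 45 were lower and 0 higher at 50 nM, where 8.17% and 7.44% of all genes were. The median log2 fold change of the 45 was -0.15, while that of the 46 replication and G1/S genes was -0.05. SGO2, which protects centromeric cohesion, was at -0.74 ± 0.09 (edgeR adjusted p = 0.000349), and ECT2, an exchange factor of cytokinesis, at -0.41 ± 0.07 (edgeR adjusted p = 0.00394). CENPE, a kinetochore motor, was at -0.40 ± 0.08 (edgeR adjusted p = 0.00845), and not called without control replicate 3 (edgeR adjusted p = 0.054) or by limma on log2(FPKM + 1) with no filter (adjusted p = 0.0549). SGO1, which also guards centromeric cohesion, was at -0.46 ± 0.10 (edgeR adjusted p = 0.014), and not called without replicate 1 or 2 at 50 nM or control replicate 2 or 3 (edgeR adjusted p up to 0.0651). At 250 nM 0 of the 45 passed by edgeR, with 19 at an unadjusted p under 0.05, all lower, where 4.71% of all genes were, and a median of -0.16. Between the concentrations 0 passed by edgeR, with 5 at an unadjusted p under 0.05, all higher at 250 nM, where 3.01% of all genes were. An earlier reading of these data had already shown mitotic genes lower, so this is no independent evidence, and the difference between the lists was not tested.

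**Figure D5:**
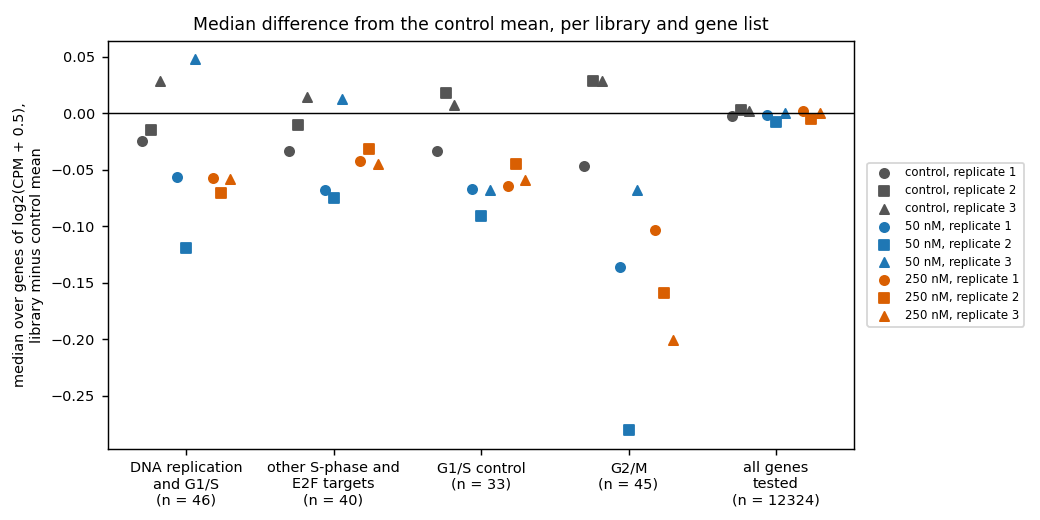
Median log2 difference from the control mean in each library, for the 46 replication and G1/S genes for the 3 other lists and for all genes tested, with a point for each library. For the G2 and mitosis list all 6 libraries with estradiol lie between -0.28 and -0.07, and for the 46 genes replicate 3 at 50 nM lies at 0.05.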

How the data were processed

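Estimated counts and FPKM, both deposited by the authors, give 1 value for each gene in each library. Per the submitters' processing notes, the tools included TopHat2 2.1.1 and Trim Galore, with Cuffdiff and Cufflinks. The genome build, annotation and counting program are not given in the sources used, so no coordinates are printed. The labels name a small RNA kit for these mRNA libraries. Low counts pile up at 4, 8 and 12, so about 4 units stand for 1 fragment. Counts are whole numbers and needed no rounding. Strand use is not stated, so overlapping, antisense and near-identical genes may share counts. Groups come from the sample titles, and the column names of both tables give the group and number.

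The 46 members and the gene lists were chosen with earlier results of these data known. All 46 symbols matched a RefSeq table of the assembly mOryCun1.1, used for names only. The quasi-likelihood test of edgeR 4.0.16 (R 4.3.3) was run on the counts of all 9 libraries, with TMM factors and filterByExpr (minimum count 10). It was two-sided, adjusted by Benjamini-Hochberg over 12324 genes, and called at 0.05. The biological coefficient of variation was 8.92%. CPM were computed here from the counts with TMM factors. Full statistics were to be given for members past the threshold, for the 3 of lowest p in each pairwise comparison and for CCND1, CCNE1, CCNE2, E2F1, PCNA, MCM2 and CDC6. They add, of each other list, up to 4 genes past the threshold of lowest p per comparison. ORC2, ORC4, ORC5, E2F5 and the other members given with a fold change were chosen after their values were seen. Libraries of a group differed by more than sampling noise (chi-square per degree of freedom of 3.08 or more in all 9 pairs), so none was merged. Alternatives were DESeq2 1.42.0, limma-voom (limma 3.58.1), upper-quartile or RLE factors, a stricter filter (5 CPM in at least 3 libraries) or none, the 2 groups alone, the replicate number as a block, and counts divided by 4. Others were limma on the deposited FPKM as log2(FPKM + 0.1) or log2(FPKM + 1), with at least 1 FPKM in 3 libraries or, for the second, unfiltered, and leaving out each library.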

Additional observations from a re-analysis of the deposited data

How the results depend on the processing

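Under 21 alternatives, no member of the 46 passed in any comparison but CCNE1 at 50 nM without replicate 3 at 50 nM, which made the count of members called 1. Without that library the median log2 fold change of the 46 was -0.103 at 50 nM against control and 0.048 at 250 nM against 50 nM. Over the fits that leave out 1 library the median ran from -0.103 to -0.0226 at 50 nM, from -0.0768 to -0.0414 at 250 nM and from -0.0624 to 0.048 between the concentrations, and the members called at 50 nM from 0 to 1.

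Among the genes given with full statistics the sign turned for 2, both with groups that overlap. CDC6 at 50 nM was -0.0174 on log2(FPKM + 1) with and without a filter, -0.0202 on log2(FPKM + 0.1) and -0.00835 without replicate 1 at 50 nM, and at 250 nM it was 0.00604 without replicate 1 at 250 nM. E2F1 at 50 nM was -0.0312 without replicate 3 at 50 nM. E2F1 at 250 nM was -0.026 on log2(FPKM + 1) with and without a filter, -0.0297 on log2(FPKM + 0.1), -0.0338 without replicate 2 at 250 nM and -0.0271 without control replicate 1. Over the fits that leave out 1 library, CDC6 ran from -0.00835 to 0.105 at 50 nM and from -0.119 to 0.00604 at 250 nM, and E2F1 from -0.0312 to 0.145 and from -0.0338 to 0.0415. Over all members tested, 11 changed sign at 50 nM and 7 at 250 nM against control in each of the 3 FPKM settings. The median log2 fold change over all genes at 50 nM was -0.0505 on log2(FPKM + 1), where it was -0.00196 in the main fit. The cause of these sign changes was not tested.

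Counts over all genes moved more. DESeq2 called 702 genes at 50 nM, 140 at 250 nM, 99 between the concentrations and 553 in the test of any difference. Only the 2 groups compared gave 244 at 50 nM, and no filter 353 in the test of any difference. log2(FPKM + 1) gave 14 and log2(FPKM + 0.1) 15 genes at 250 nM, and without a filter log2(FPKM + 1) gave 234, 4, 11 and 81 in those 4 tests. Leaving out 1 library gave 187 to 564, 5 to 56, 21 to 50 and 122 to 339 genes in the same 4 tests. No pairing of the samples by replicate number was seen in the deviations from the group means. Correlations of deviations lay between -0.0319 and 0.0359 at the same number and between -0.0795 and 0.0684 at different numbers. With the replicate block edgeR called 492 genes at 50 nM and 43 at 250 nM. It called 42 between the concentrations and 272 in the test of any difference, with 0 members. A promoter motif search was not run, because no promoter sequences were used here.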
